A study of Mus musculus with 20 samples.

Results

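Glutamate transporter and glutamine handling genes were read in 20 one-colour Agilent arrays of mouse brain RNA. The 9 genes were Slc17a6, Slc17a7 and Slc17a8, which code for the vesicular glutamate transporters VGLUT2, VGLUT1 and VGLUT3, Slc1a1, Slc1a2, Slc1a3 and Slc1a6, which code for transporters of the plasma membrane, Glul, which codes for glutamine synthetase, and Slc38a1, which codes for a glutamine transporter. They were taken by symbol, through the RefSeq accession that the array design gives each probe. They hold 14 of the 55681 probes of the array and 9 of the 20972 gene symbols.

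The study crossed the HIV-1 protein Tat with methamphetamine (Meth), and each of the 4 groups had 5 mice. All were male C57BL/6J mice aged 6 to 7 weeks by the labels, and all received doxycycline (100 mg/kg), which turns on Tat where the transgene is present. Tat-/Sal mice carried the GFAP promoter-controlled Tet-binding protein without Tat and received saline for 7 days. Tat-/Meth mice had that same genotype and received Meth (2 mg/kg) for 7 days. Tat+/Sal mice also carried the inducible Tat gene and received saline, and Tat+/Meth mice carried it and received Meth (2 mg/kg). The GFAP promoter places Tat in astrocytes, so neurons met Tat made by other cells. By the sample labels the tissue was a left hemisphere taken 24 h after injections ended. The methods of the study instead name caudate putamen, in older mice, after a later challenge dose of Meth. By those methods all animals received that dose, the saline groups included.

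Neurons load glutamate into synaptic vesicles with the vesicular transporters, using a proton gradient built by the vesicular ATPase. After release, astrocytes clear most of the glutamate through Slc1a2 (GLT-1) and Slc1a3 (GLAST), glutamine synthetase turns it into glutamine, and neurons take glutamine up again through transporters such as Slc38a1. In striatum, VGLUT1 marks terminals of cortical neurons, VGLUT2 terminals of thalamic neurons and VGLUT3 the cholinergic interneurons. The mRNA of VGLUT1 and VGLUT2 lies mostly in the cell bodies outside striatum.

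Values are background-subtracted spot signals on the log2 scale, shifted so that every array has the same 75th percentile, the mean over arrays. A probe was tested if its mean reached 6 in at least 1 group, which 31516 probes did, and all 14 probes of these genes passed. A gene with several probes was read at its brightest probe (15102 genes tested), and a change passed with an adjusted p under 0.05 (limma, Benjamini-Hochberg over all probes tested). Of 10 markers of striatal medium spiny neurons, 10 were well above background on all 20 arrays, whereas Gabra6 (cerebellar granule cells) and Slc6a4 (serotonin neurons) were not well above background on any array. All 5 Tat-/Meth arrays lay on slide 1, which held no other group. Tat+/Meth was divided, with 3 arrays beside all 5 of Tat-/Sal on slide 2 and 2 beside all 5 of Tat+/Sal on slide 3. Whatever sets Tat-/Meth apart also sets slide 1 apart, and Meth without Tat and the slide cannot be told apart. The bright corner control spots read 14.66 to 15.06 on slide 1 and 16.80 to 17.42 on slides 2 and 3. Probes of all kinds had a median log2 difference of 0.10 between Tat-/Meth and Tat-/Sal. That median was 0.22 with arrays scaled to their median signal and -0.33 without scaling. The labels do not say how RNA samples relate to cages or litters. The p-values set differences between groups against the spread between arrays of the same group. That spread does not include any difference of slide 1 from the other slides.

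In mice without Tat, 2 of the 9 genes had higher signal after Meth, Slc38a1 and Slc1a3, and none had lower signal. Over all genes tested, 49.3% passed in this comparison, 34.3% of them upwards as a share of all tested, so 2 of 9 lies below the background. The median difference of the 9 genes was 0.08, against 0.14 for all genes. In Tat-expressing mice 0 of 9 genes passed in limma after Meth (1 at an unadjusted p under 0.05, Slc17a8). There 0% of all genes passed, and 1720 genes had an unadjusted p under 0.05. Between the Meth groups 3 genes were lower with Tat (Slc38a1, Slc17a8 and Slc1a3), where 53.4% of all genes passed, 37.7% of all being lower. Tat in saline mice moved 0 of the 9 genes in limma (0 at an unadjusted p under 0.05), against 0.669% of all genes. Tat+/Meth against Tat-/Sal also gave 0 in limma (1 at an unadjusted p under 0.05, Slc17a8), against 0% of all genes. The effect of Meth differed with Tat (interaction) for Slc38a1 and Slc17a8, lower in both, with 35.4% of all genes passing and 23% lower. No difference of the 14 probes that passed was above 2-fold. Of all genes, 6.85% passed that limit in Tat-/Meth against Tat-/Sal, 7.22% between the Meth groups and 7.44% for the interaction. The plot of group differences gives every probe.

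**Figure D1:**
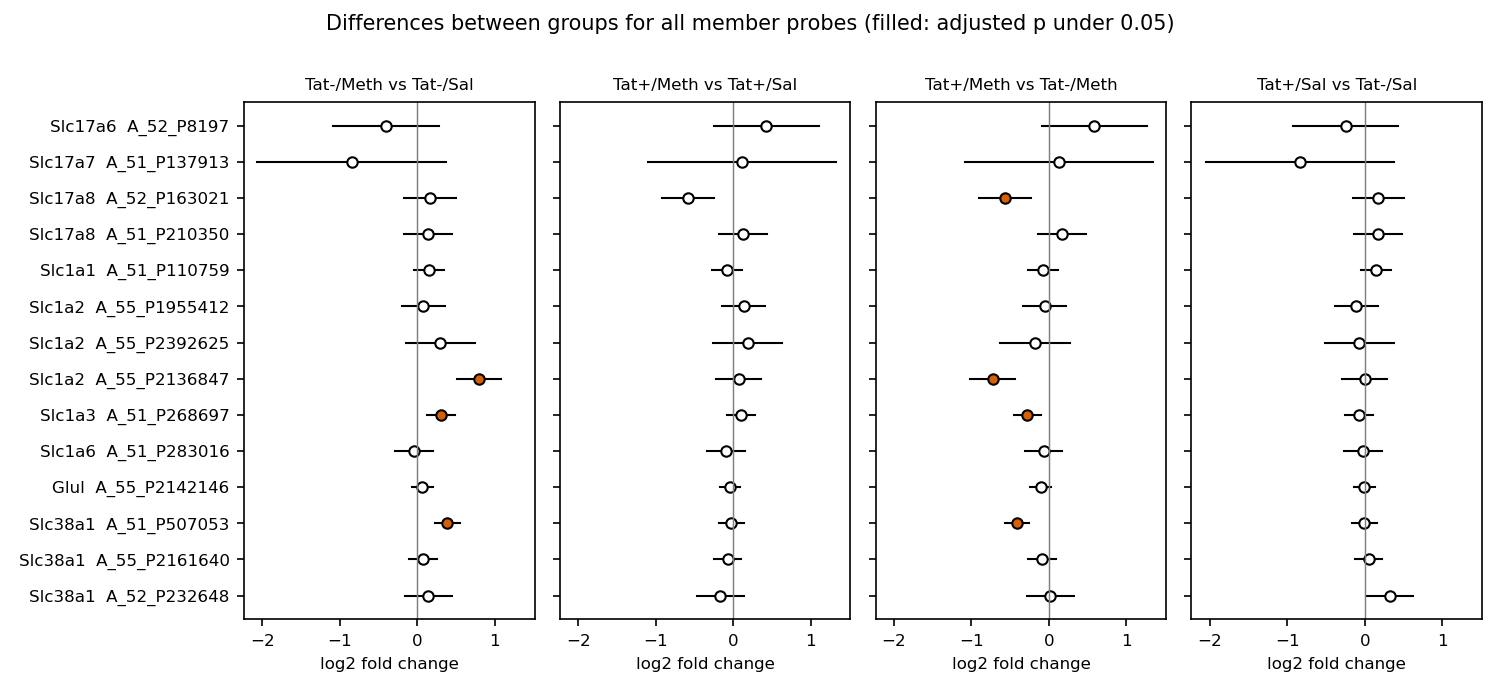
Log2 fold change (points) with its 95% confidence interval (bars) from limma for each of the 14 probes in 4 comparisons, on values scaled to the 75th percentile. Filled points have an adjusted p under 0.05. They are 3 probes in Tat-/Meth against Tat-/Sal and 4 in Tat+/Meth against Tat-/Meth, and there are none in the other comparisons. Slc17a6 reached the limit for testing only through Tat+/Meth, so no test is read from its open points.

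Of the vesicular transporters, Slc17a7 (VGLUT1) varied most between mice of the same group. The 5 Tat-/Sal arrays read 6.67, 7.05, 7.58, 8.58 and 6.44, and the 5 Tat-/Meth arrays 6.14, 5.84, 6.84, 7.41 and 5.85. With Tat, Slc17a7 read 8.72, 5.42, 5.37, 6.19 and 6.43 after saline, and after Meth 7.11, 7.62, 5.80, 6.57 and 5.61. Tat+/Sal replicate 1 was the highest of all 20 arrays and sat beside the lowest 2 arrays of the same group, and the 4 groups overlapped throughout. The highest array was 10.2-fold above the lowest. The SD within groups, pooled over the 4 groups, was 0.97 log2 units, larger than that of 99.2% of the probes tested, whose median was 0.19. Slc17a7 had a mean of 7.26 ± 0.85 (SD, n = 5) in Tat-/Sal and of 6.42 ± 0.69 (n = 5) in Tat-/Meth, a difference of -0.85 with a 95% interval from -2.07 to 0.37 (limma adjusted p = 0.231). The difference of Tat+/Sal from Tat-/Sal was -0.84, with an interval from -2.05 to 0.38 (limma adjusted p = 0.491). These intervals reach from 0.239-fold to 1.29-fold and from 0.241-fold to 1.30-fold. Tat-/Sal lay on slide 2 and Tat+/Sal on slide 3. Within Tat+/Meth alone, the Slc17a7 mean on slide 3 (n = 2) less that on slide 2 (n = 3) was -0.753. Under the alternatives other than leaving out 1 array, the difference of Tat+/Sal from Tat-/Sal ran from -0.985 to -0.084.

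Over the 20 arrays, with each group mean taken off, Neurod2 was the gene whose deviations most resembled those of Slc17a7 among 15045 genes searched (Pearson r = 0.860, Spearman rho = 0.714), and Tbr1 came next (r = 0.818, rho = 0.683). Both code for transcription factors of cortical excitatory neurons and stood in the list of cortical marker genes. Without the arrays farthest out, Tat-/Sal replicate 4 and Tat+/Sal replicate 1, r was 0.688 for Neurod2 and 0.608 for Tbr1. Of the other cortical markers tested, Neurod6 ranked 145 of 15053 genes (r = 0.533) and Lamp5 331 (r = 0.464), whereas Rorb (r = -0.378) and Rasgrf2 (r = -0.334) ran the other way. The part of tissue content in the spread of Slc17a7 was not tested. In bulk RNA, fewer cells of a type and less RNA per cell cannot be told apart. The plot of Slc17a7 against these genes shows the arrays.

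**Figure D2:**
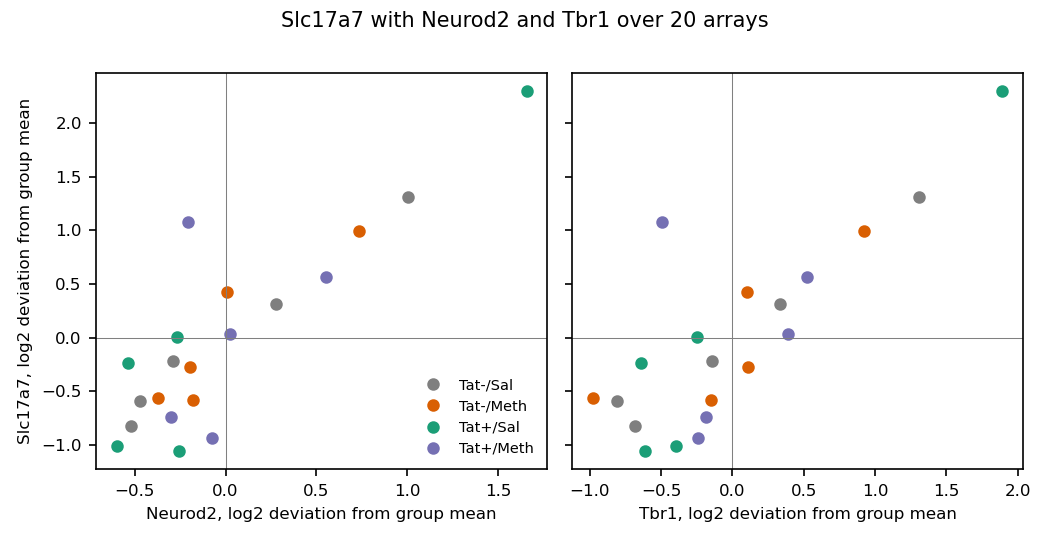
Deviation of Slc17a7 from its group mean (y axis, log2) against that of Neurod2 (left) and Tbr1 (right) on the 20 arrays, coloured by group. Tat+/Sal replicate 1 is the point at the top right of both panels, and 1 Tat+/Meth array (replicate 2) lies high for Slc17a7 but below its group mean for both other genes.

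Neurod2 binds E boxes and Tbr1 binds T boxes, and the sequence before the start of Slc17a7 was searched for both and for GC boxes. Whether either factor acts on Slc17a7 was not tested. The capitals below mark GC boxes only, not E boxes. These are the 250 bases before the start in RefSeq (GRCm38.p6, chr7:45163671-45163920, plus strand), 5′ to 3′, with each match to the GC box GGGCGG, on either strand, in capitals.
Slc17a7: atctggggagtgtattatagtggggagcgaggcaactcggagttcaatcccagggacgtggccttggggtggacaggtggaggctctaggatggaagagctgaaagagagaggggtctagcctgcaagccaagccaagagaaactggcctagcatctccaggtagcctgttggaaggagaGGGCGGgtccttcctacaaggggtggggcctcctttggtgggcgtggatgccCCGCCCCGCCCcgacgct
The window held 1 E box of the general form CANNTG, the hexamer CAGGTG, but neither the E boxes CAGATG and CAGCTG nor the T box TCACACC on either strand. Of 32851 such windows of mouse genes, 66.2% held CANNTG, 17.2% CAGGTG, 14.4% CAGATG, 13% CAGCTG and 3.33% TCACACC. It held 3 GC boxes, the last pair overlapping, a motif that 32.7% of windows held and that stood before 6 of the 8 member genes with a window. These are matches of letters in 1 window, and they say nothing of whether the factors bind elsewhere.

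Slc17a6 (VGLUT2) arrays ranged from 5.60 to 6.64 (Tat-/Sal), from 5.02 to 5.93 (Tat-/Meth), from 5.26 to 6.49 (Tat+/Sal) and from 5.37 to 7.45 (Tat+/Meth). Its highest value was that of Tat+/Meth replicate 3, and the groups overlapped. It reached the limit for testing only through Tat+/Meth, with a mean of 6.12 ± 0.80 (SD, n = 5), and fell short of it without replicate 3 of that group. Its differences are therefore given with no test. It was well above background on 5, 3, 3 and 5 arrays of the groups in that order. After saline its mean was 5.94 without Tat and 5.70 with Tat. The Tat-/Meth mean, 5.54, lay 0.59 below that of Tat+/Meth. The genes most like it were Npcd and Gpx3 (r = 0.754 for both), with r falling to 0.573 and 0.497 without the 2 arrays farthest out.

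Slc17a8 (VGLUT3) was measured by a pair of probes that did not move together. Probe A_52_P163021, the brighter, read 7.91, 7.79, 7.73, 7.77 and 7.73 in Tat-/Meth and 7.19, 6.97, 6.84, 7.51 and 7.57 in Tat+/Meth. It read 7.54, 7.75, 7.57, 7.54 and 7.70 in Tat-/Sal and 7.57, 7.46, 7.50, 8.20 and 8.24 in Tat+/Sal. All 5 Tat+/Meth arrays lay below all 5 Tat-/Meth arrays, while Tat+/Sal replicates 4 and 5 were the highest of all 20. Tat+/Meth was lower than Tat-/Meth by 0.57 (-0.57 ± 0.16, SE; limma adjusted p = 0.00573), and the value without scaling was -0.23 (limma adjusted p = 0.334). Tat+/Meth differed from Tat+/Sal by -0.58 (limma unadjusted p = 0.00186, limma adjusted p = 0.247), with 3 of its arrays below every Tat+/Sal array. The interaction was -0.745 ± 0.225 (SE; limma adjusted p = 0.0141). Without Tat+/Sal replicates 4 and 5, a step chosen after seeing the data, it was -0.46 (limma adjusted p = 0.0514).

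The slides divided the Tat+/Meth arrays of that probe. The 3 on slide 2 read 6.84 to 7.19 and the 2 on slide 3 read 7.51 to 7.57. Within slide 2 Tat+/Meth differed from Tat-/Sal by -0.62 for Slc17a8 A_52_P163021 (limma adjusted p = 0.26), and within slide 3 Tat+/Meth differed from Tat+/Sal by -0.25 (adjusted p = 1), against -0.40 and -0.58 with slides pooled. The dimmer probe, A_51_P210350, ranged from 6.92 to 7.85 over the 20 arrays, and Tat+/Meth differed from Tat-/Meth by 0.16 (limma adjusted p = 0.362), with an interaction of -0.01 (adjusted p = 0.981). Averaged over both probes, the Slc17a8 difference between the Meth groups was -0.20 (limma adjusted p = 0.0879) and the interaction -0.38 (limma adjusted p = 0.0414).

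Slc1a2 (GLT-1), the main astrocyte transporter, had 3 probes. The brightest, A_55_P1955412, read 13.53, 13.51, 13.69, 13.58 and 13.72 in Tat-/Sal, 13.78, 13.73, 13.70, 13.71 and 13.52 in Tat-/Meth, 13.68, 13.76, 13.89, 12.97 and 13.20 in Tat+/Sal, and 13.67, 13.71, 13.74, 13.51 and 13.53 in Tat+/Meth. Tat+/Sal replicates 4 and 5 were the lowest of all 20 arrays, and otherwise the groups overlapped. No comparison passed for this probe, and Tat-/Meth differed from Tat-/Sal by 0.08, with an interval from -0.20 to 0.35 (limma adjusted p = 0.646).

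The dimmest Slc1a2 probe, A_55_P2136847, was assigned to another RefSeq transcript and gave the largest difference of the 14 probes among those that passed. It read 10.83, 10.81, 10.704, 10.73 and 10.73 in Tat-/Meth. It read 10.07, 9.78, 9.96, 9.90 and 10.12 in Tat-/Sal, 10.07, 10.09, 10.54, 9.55 and 9.57 in Tat+/Sal, and 10.00, 10.17, 10.00, 9.90 and 10.08 in Tat+/Meth. All 5 Tat-/Meth arrays lay above the other 15. Tat-/Meth was higher than Tat-/Sal by 0.79 ± 0.14 (SE; 1.73-fold; limma adjusted p = 0.00011) and Tat+/Meth was lower than Tat-/Meth by 0.73 (-0.73, limma adjusted p = 0.00023). The interaction was -0.725 ± 0.194 (SE; limma adjusted p = 0.00673), and -0.24 without scaling of the arrays (adjusted p = 0.321). By probes, 3 of 14 passed in Tat-/Meth against Tat-/Sal, where 50.3% of all probes did, and 4 of 14 in Tat+/Meth against Tat-/Meth, where 53.5% did.

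The middle probe, A_55_P2392625, assigned to that same transcript, read 10.67 to 11.36 in Tat-/Sal and 11.03 to 11.43 in Tat-/Meth, and the groups overlapped. Its difference was 0.29, with an interval from -0.15 to 0.74 (limma adjusted p = 0.26). Within arrays, the difference A_55_P1955412 less A_55_P2136847 of Slc1a2 shifted by -0.72 from Tat-/Sal to Tat-/Meth (exact two-sided permutation test, p = 0.00794, the smallest this design can give, and 0.0556 after Benjamini-Hochberg adjustment over 35 such tests). Such a difference within an array does not depend on scaling, and the adjusted p did not pass 0.05. Averaged over its 3 probes, Slc1a2 differed between Tat-/Meth and Tat-/Sal by 0.39 (limma adjusted p = 0.0372). The transcript assigned does not separate the probe that moved from those that did not pass. In all 3 probes Tat+/Sal replicate 4 was the lowest of the 20 arrays.

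**Figure D3:**
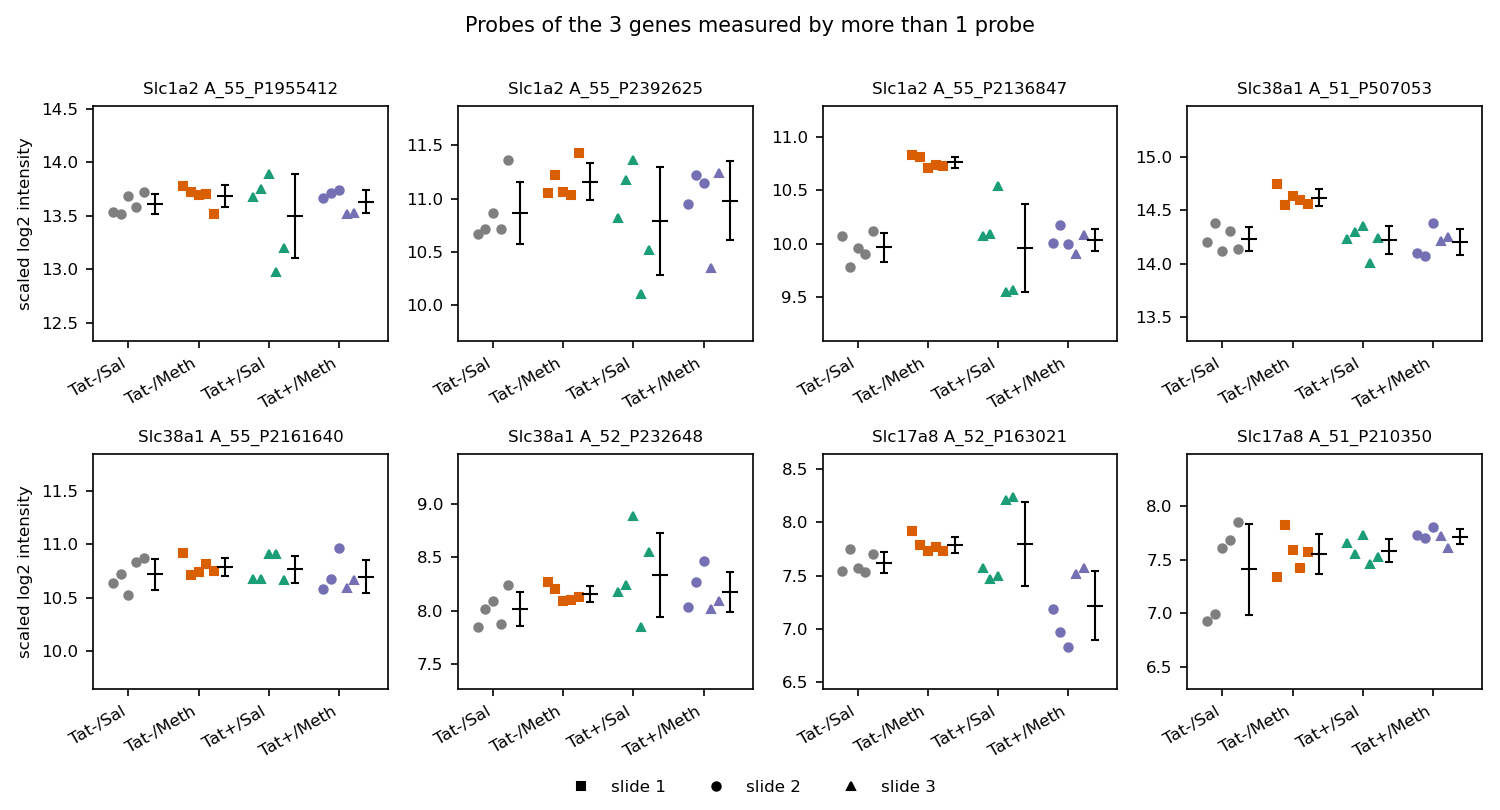
Scaled log2 intensity (y axis) of each probe of Slc1a2, Slc38a1 and Slc17a8 on each array, by group, with the slide as the marker shape and the group mean ± SD beside the points (n = 5). Each panel spans the same number of log2 units. Only Slc1a2 A_55_P2136847 and Slc38a1 A_51_P507053 have all 5 Tat-/Meth arrays above the other 15.

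Slc1a3 (GLAST), the other astrocyte transporter, had 1 probe. It read 14.56, 14.72, 14.48, 14.46 and 14.27 in Tat-/Meth and 14.29, 14.19, 14.10, 14.17 and 14.23 in Tat-/Sal. It read 14.002, 14.34, 14.24, 13.98 and 14.04 in Tat+/Sal and 14.12, 14.26, 14.19, 14.16 and 14.37 in Tat+/Meth. In 4 of 5 Tat-/Meth arrays Slc1a3 was above every Tat-/Sal array, and replicate 5 lay among them. Tat-/Meth was higher by 0.305 ± 0.084 (SE; limma adjusted p = 0.0056), but the sign turned without scaling (-0.12, adjusted p = 0.424), where all probes had a median of -0.33 and Slc1a3 stood 0.21 above it. With median scaling the Slc1a3 difference was 0.43 (limma adjusted p = 0.0895). Tat+/Meth was lower than Tat-/Meth by 0.28 (-0.28 ± 0.08, SE; limma adjusted p = 0.00912), a sign that also turned without scaling (0.06, adjusted p = 0.722), and with normexp background correction the adjusted p was 0.0775. The interaction of Slc1a3 was -0.21, with an interval from -0.46 to 0.04 (limma adjusted p = 0.188).

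Astrocyte markers were read in the same comparison. Of 10 markers, Tat-/Meth had 5 higher and 1 (Aldoc) lower against Tat-/Sal, beside 49.3% of all genes passing and 34.3% higher, and without scaling 1 was higher and 3 lower. Gja1, the main connexin of astrocytes, had the largest difference (0.84 ± 0.09, SE; limma adjusted p = 6.1e-07), and Gfap differed by 0.28 (adjusted p = 0.306). The summed level of the 10 markers was 18.74 to 18.96 in Tat-/Sal and lay between 18.63 and 18.88 in Tat-/Meth, while in Tat-/Meth against Tat-/Sal the median difference of the list was 0.22. All 10 were well above background on at least 15 arrays, and the part of astrocyte content in the Slc1a2 and Slc1a3 values was not tested.

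The neuronal transporters of the plasma membrane showed no difference that passed. Slc1a1 (EAAC1), which also supplies neurons with cysteine, was printed as 10 spots per array, of which 7 to 10 were used. Its spots differed within an array by an SD of 0.016 to 0.036, and its arrays within groups by a pooled SD of 0.145. The ranges were 12.89 to 13.25 (Tat-/Sal), 13.01 to 13.36 (Tat-/Meth), 12.96 to 13.30 (Tat+/Sal) and 12.88 to 13.26 (Tat+/Meth), with all groups overlapping. Its largest differences were 0.15 for Tat-/Meth against Tat-/Sal, with an interval from -0.05 to 0.34 (limma adjusted p = 0.192), and 0.15 for Tat+/Sal against Tat-/Sal (0.145, adjusted p = 0.452). The first turned to -0.27 without scaling (limma adjusted p = 0.038), against -0.33 for the median of all probes. Slc1a6 (EAAT4), best known from Purkinje cells, read 9.90 to 10.62 over the 20 arrays, with group means of 10.16 to 10.27. Its largest difference was -0.11 (Tat+/Meth against Tat-/Sal), and the interval of Tat-/Meth against Tat-/Sal ran from -0.28 to 0.20 (limma adjusted p = 0.776). Without scaling that difference was -0.46 (limma adjusted p = 0.0175).

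Glul, the astrocyte enzyme that makes glutamine, was the steadiest of the 9 genes. The ranges were 15.93 to 16.05 (Tat-/Sal), 15.96 to 16.15 (Tat-/Meth), 15.91 to 16.27 (Tat+/Sal) and 15.89 to 16 (Tat+/Meth). Its pooled SD of 0.09 was larger than that of only 9.41% of the probes tested, and its highest array was 1.30-fold above its lowest. Tat-/Meth differed from Tat-/Sal by 0.06, with an interval from -0.07 to 0.20 (limma adjusted p = 0.42), and Tat+/Meth from Tat-/Meth by -0.11 (adjusted p = 0.158). The Glul values depended on scaling. With quantile normalization both passed (0.21, limma adjusted p = 0.00633, and -0.29, adjusted p = 0.00048), and without scaling both turned (-0.36, adjusted p = 0.00184, and 0.23, adjusted p = 0.0381).

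Slc38a1, the glutamine transporter of neurons, gave the clearest separation at a brightest probe. Probe A_51_P507053 read 14.75, 14.55, 14.63, 14.59 and 14.56 in Tat-/Meth. It read 14.20, 14.38, 14.12, 14.30 and 14.13 in Tat-/Sal, 14.23, 14.29, 14.35, 14.004 and 14.24 in Tat+/Sal, and 14.10, 14.07, 14.38, 14.21 and 14.25 in Tat+/Meth. All 5 Tat-/Meth arrays lay above the other 15, and the other 3 groups overlapped. Tat-/Meth was higher than Tat-/Sal by 0.39 ± 0.08 (SE; 1.31-fold; limma adjusted p = 0.000358), but the value was -0.03 without scaling (adjusted p = 0.836), which is 0.30 above the median of all probes there. Tat+/Meth was lower than Tat-/Meth by 0.41 (-0.41, limma adjusted p = 0.000172), with -0.08 without scaling. The interaction, which passed for 3 of 14 probes against 37% of all probes, was -0.41 ± 0.11 (SE; limma adjusted p = 0.00578), with -0.64 under median scaling (adjusted p = 0.0688) and 0.08 without scaling (adjusted p = 0.737).

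The other probes of Slc38a1 did not show this. A_55_P2161640 differed between Tat-/Meth and Tat-/Sal by 0.07, with an interval from -0.11 to 0.25 (limma adjusted p = 0.509), and A_52_P232648 by 0.14, with an interval from -0.16 to 0.44 (adjusted p = 0.428). Within arrays the difference A_51_P507053 less A_55_P2161640 shifted by 0.32 from Tat-/Sal to Tat-/Meth, which did not pass after adjustment (exact two-sided permutation test, p = 0.00794, adjusted 0.0556). Averaged over its 3 probes, the Slc38a1 interaction was -0.28 (limma adjusted p = 0.0586). The plot of probes of 1 gene shows each.

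**Figure D4:**
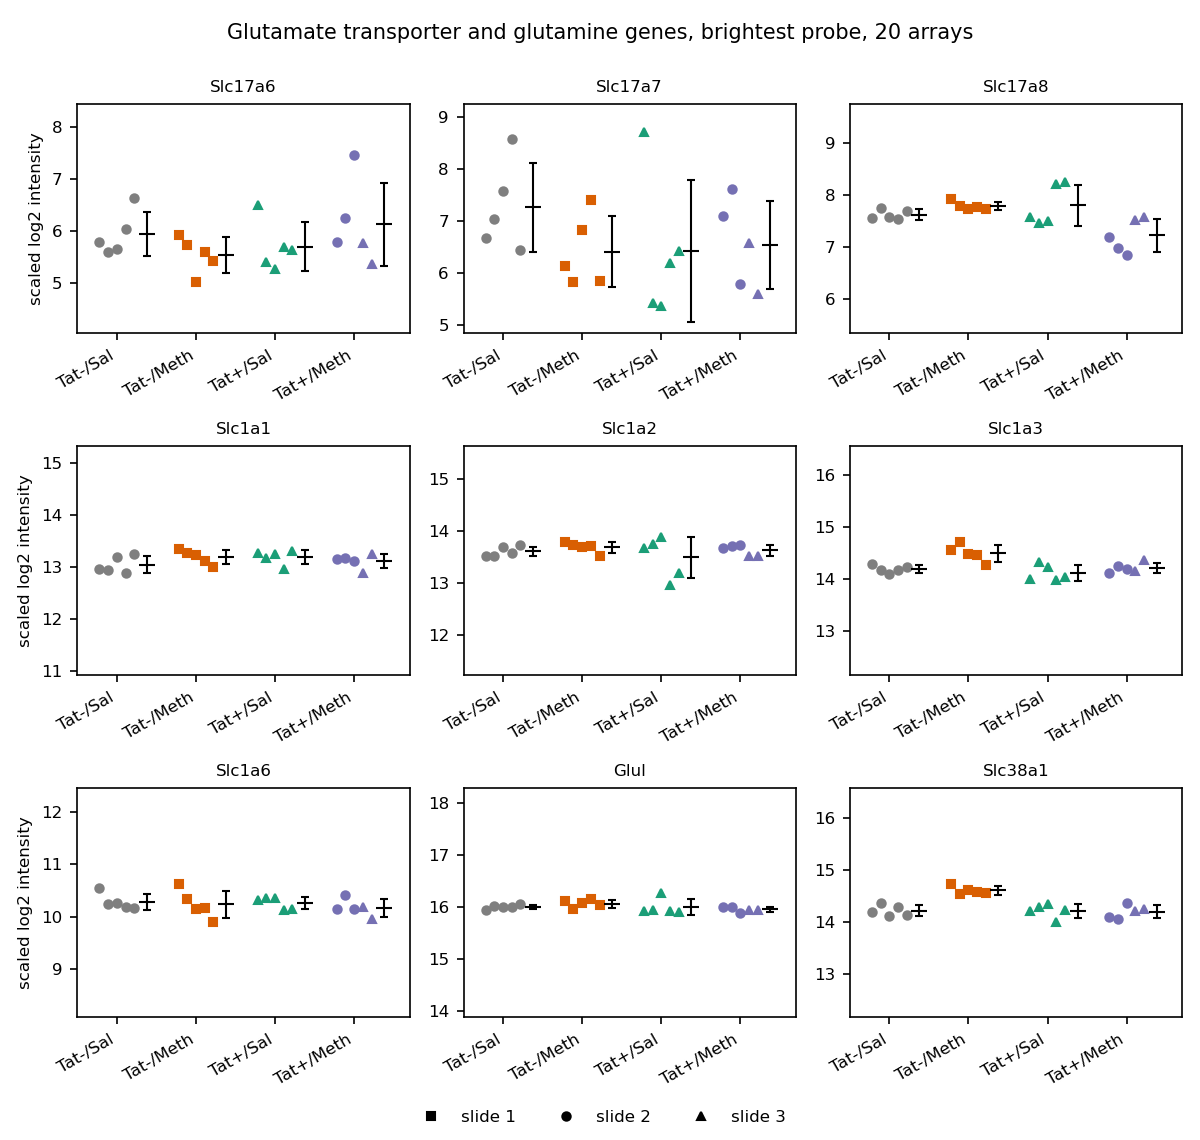
Scaled log2 intensity (y axis, each panel spanning the same number of log2 units) of the 9 genes at their brightest probe on each array, by group, with the slide as the marker shape and the group mean ± SD beside the points (n = 5). Slc17a7 runs from 5.37 to 8.72 with all groups overlapping, Glul stays between 15.89 and 16.27, and the Slc38a1 values of Tat-/Meth (14.55 to 14.75) stand above those of the other groups.

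Among the members, Slc17a8 and Slc1a2 ran most strongly against each other over the 20 arrays, on deviations from the group means at the brightest probes (r = -0.782). Tat+/Sal replicates 4 and 5 were the highest for Slc17a8 and the lowest for Slc1a2 at these probes. On the dimmer Slc17a8 probe, A_51_P210350, the same arrays read 7.463 and 7.525, the lowest of their group. No correlation between members or with marker sums is given for that probe or without these arrays. The summed level of 6 microglia markers ran with Slc17a8 (r = 0.798) and against Slc1a2 (r = -0.735), and it was highest in Tat+/Sal replicate 4 (16.02, against 15.62 to 15.85 in the other 19 arrays). All 6 microglia markers were well above background on at least 15 arrays, and their part in either value was not tested. The gene most like Slc1a2 was Mib1 (r = 0.953, and 0.885 without the 2 arrays farthest out), and the next was Lpgat1 (r = 0.935). For Slc17a8 they were Nipa2 (r = 0.911) and Olfr1252 (r = 0.884). Slc1a3 most resembled Nme1 (r = 0.904) and Rnf103 (r = 0.866), Slc1a1 Ppard (r = 0.880) and Osbpl2 (r = 0.879), and Slc1a6 Cul7 (r = 0.864) and Rpain (r = 0.861). Glul resembled Itpr2 (r = 0.833), and Slc38a1 was most like Snx11 (r = 0.831) and Bend4 (r = 0.804). These arrays share slides and scaling, and each stands at the top of 15045 genes searched.

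The rest of the glutamate pathway held a larger difference than any member. In the list of 18 other genes of glutamate and glutamine handling, Slc1a7 (EAAT5), a glutamate transporter known from retina, was low in Tat-/Meth. Slc1a7 read 5.92, 6.52, 5.21, 5.34 and 6.34 there, 7.72, 7.63, 7.38, 7.24 and 7.97 in Tat-/Sal, 7.37, 6.98, 7.25, 7.53 and 7.41 in Tat+/Sal, and 8.01, 8.07, 8.15, 7.76 and 7.49 in Tat+/Meth. All 5 Tat-/Meth arrays lay below the other 15, and the probe was well above background on 4 of them. The difference of Tat-/Meth from Tat-/Sal was -1.72 ± 0.22 (SE; limma adjusted p = 4.14e-06), Tat+/Meth exceeded Tat-/Meth by 2.03 (adjusted p = 5.3e-07) and the interaction was 2.31 (adjusted p = 1.49e-05). The difference of Tat-/Meth from Tat-/Sal stayed below 0 in each of 35 settings (-2.14 to -0.87). In every setting Tat-/Meth was alone on slide 1, so they cannot separate Meth from the slide. Of all genes, 6.85% passed above 2-fold in this comparison. Tat+/Meth differed from Tat+/Sal by 0.59 (limma adjusted p = 0.341).

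In that list 5 further genes had higher signal with Meth in mice without Tat, though none did without scaling, where 7 of the 18 were lower, and 12 did not pass. Of all genes 49.3% passed and 34.3% were higher, so the 6 of 18 lie below the background. Among them were Slc25a18 (0.54 ± 0.18, SE), a mitochondrial glutamate carrier, Got2 (0.26 ± 0.06) and Got1 (0.24 ± 0.10), the aspartate aminotransferases, and Slc25a12 (0.23 ± 0.06), an aspartate-glutamate carrier. The median of the 18 was 0.16, against 0.14 for all genes. Of the vesicular ATPase and chloride channel genes 6 of 11 were higher and 1 lower (0 and 5 without scaling), beside 34.3% higher among all genes, among them Atp6v1a (0.455 ± 0.070, SE; limma adjusted p = 2.97e-05), Atp6v1e1 (0.36), Atp6v1c1 (0.35), Clcn3 (0.32), Atp6v1h (0.30) and Atp6v1b2 (-0.25), with a list median of 0.20 against 0.14 for all genes.

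The ion gradient list had Kcnj10, the inward rectifier potassium channel of astrocytes, higher (0.47 ± 0.10, SE; limma adjusted p = 0.000636) and Atp1b2 lower (-0.25, adjusted p = 0.0164) among 7 genes tested. Of all genes 49.3% passed and 34.3% were higher, so these calls are not particular to the list. Without scaling 0 were higher and 3 lower. Of the transporters of other transmitters 3 of 8 tested were higher, near the 34.3% of all genes, among them Slc5a7 (choline, 0.63 ± 0.12, SE; limma adjusted p = 0.000208) and Slc32a1 (vesicular GABA, 0.19), with 0 higher and 3 lower without scaling. Slc6a3, Slc6a4 and Slc18a1 were below the limit, and Slc6a5 was not matched to a probe. In Tat+/Meth against Tat+/Sal 0 genes of these 4 lists passed in limma, as in Tat+/Sal against Tat-/Sal. With the slide as a random block, Tat+/Sal against Tat-/Sal had 3 of the 18, 2 of the 11 and 1 of the 8 higher. There 1 of the 8 was lower and 0 of the 7 passed in either direction. The correlation within slides in that fit was -0.059, with Tat-/Sal on slide 2 and Tat+/Sal on slide 3. Between those groups Tat and slide differ together, and only the Tat+/Meth arrays, which lie on both slides, link slides 2 and 3. The share of all genes passing in that fit is not given. The counts of that fit therefore have no background beside them and are not read as particular to the lists.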

How the data were processed

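RNA of 20 mouse brain samples was read on Agilent one-colour arrays, 5 per group, and groups were taken from the sample labels. Per the file headers, the deposited intensity values come from Agilent Feature Extraction, which subtracted the background of each spot. The authors' value table held the same background-subtracted intensity plus a constant (99.8 to 100% of probes per array) and served as an alternative. Spots marked as non-uniform or as outliers were left out, spots of a probe were averaged, and log2 intensity was scaled to the 75th percentile. limma (version 3.58.1, R 4.3.3) fitted 1 mean per group over 20 arrays, after a test on simulated data. Exact permutation tests used scipy 1.17.1, and figures matplotlib 3.10.9. Probes took their gene from the accession in the scanner files through RefSeq names, and 27656 of 55681 probes had a symbol. Array number limits the precision, and no member probe was saturated.

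All 9 genes were described at every probe. List genes were named if they passed, at most 6 per list, and for each member the 2 genes most correlated with it over arrays (deviations from group means). Gfap, the other cortical markers set beside Slc17a7, Tat+/Sal replicates 4 and 5 and the motifs searched were chosen after values were seen. The members and lists were chosen with earlier results of these data known. Alternatives covered scaling, background, filters, probes, slide, replicate number, test, threshold and leaving out arrays. Replicate numbers were taken as sample names only. Labels and methods differ in tissue, age, time and dye, and the labels and file headers were followed. Some genes that this rule would name are not reported here.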

Additional observations from a re-analysis of the deposited data

Results flagged for a closer look

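Of 56 groups of 5 arrays (14 probes, 4 groups each), 4 had 1 array far from the others, and chance gives about 1 in 20. Tat-/Sal replicate 5 read 11.36 for Slc1a2 A_55_P2392625, against 10.67 to 10.87 in the other 4. Tat-/Sal replicate 1 read 10.54 for Slc1a6, against 10.16 to 10.26. Tat+/Sal replicate 3 read 16.27 for Glul, against 15.91 to 15.95. Tat+/Meth replicate 3 read 10.965 for Slc38a1 A_55_P2161640, against 10.58 to 10.68.

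The effect of Meth differed between mice with and without Tat for 3 probes (interaction term in limma). The difference was -0.745 for Slc17a8 A_52_P163021, -0.725 for Slc1a2 A_55_P2136847 and -0.409 for Slc38a1 A_51_P507053. Each includes Tat-/Meth, whose arrays share slide 1 with no other group. For Slc17a8 the effect of Meth was 0.17 without Tat and -0.58 with Tat, and without Tat+/Sal replicates 4 and 5 the interaction was -0.46 (limma adjusted p = 0.0514). No other probe of the 3 genes passed for the interaction.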

How the results depend on the processing

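Leaving out any 1 array kept every call that could be made, but Slc17a6 fell below the limit for testing without Tat+/Meth replicate 3. The genes passing were then 2 to 2 in Tat-/Meth against Tat-/Sal, 3 to 3 in Tat+/Meth against Tat-/Meth, 2 to 2 for the interaction and 0 to 0 in the other comparisons. Under the other alternatives 1421 results kept direction and call, 32 lost the call, 18 gained it and 9 turned. Genes passing became 0 in every comparison with a 2-fold limit, and 0 with an adjusted p under 0.01 and 3-fold. With median scaling 1 gene passed in Tat-/Meth against Tat-/Sal and 1 for the interaction. Without scaling 4 passed in the former, among them Slc1a1 (-0.27), Slc1a6 (-0.46) and Glul (-0.36), which were lower. Slc38a1 (-0.034) and Slc1a3 (-0.12), which were higher in the main fit, did not pass there. The median of all probes without scaling was -0.33, and the share of all genes passing there is not given. Averaging probes gained Slc1a2 in Tat-/Meth against Tat-/Sal (0.39) and left 1 in Tat+/Meth against Tat-/Meth and 1 for the interaction, as did leaving out Tat+/Sal replicates 4 and 5 for the interaction (1). The methods' t-test, unadjusted, gave 1 in Tat+/Meth against Tat+/Sal and 1 against Tat-/Sal.

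Without scaling, Tat-/Meth against Tat-/Sal turned to -0.27 for Slc1a1, -0.12 for Slc1a3, -0.36 for Glul, -0.034 for Slc38a1 A_51_P507053 and -0.35 for Slc38a1 A_55_P2161640. Tat+/Meth against Tat-/Meth turned to 0.058 for Slc1a3 and 0.23 for Glul, and the interaction to 0.38 for Glul and 0.077 for Slc38a1 A_51_P507053. The cause was not tested. Whether arrays pair by replicate number was not settled. Of same-numbered pairs, 9 of 30 correlated over 0.1 (-0.14 to 0.31, median 0.057). Of pairs with different numbers, 20 of 120 did (-0.36 to 0.23, median -0.010). In 8 of 20 arrays the best correlation was with their own number. With the number as a replicate block the genes passing were 2, 3 and 2 in the 3 comparisons with calls and 0 in the others. Slc17a6 and Slc17a7 are dim and variable, which limits what could be detected.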
